A study of Mus musculus with 4 samples.

Results

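Of the genes in the deposited table, 39 encode aminoacyl-tRNA synthetases or the proteins that hold several of them together, among 26207 genes in all. The members were taken by symbol, and all 39 were found in the table. They comprise 20 genes for cytosolic enzymes, 3 genes for the scaffold proteins of the multisynthetase complex (Aimp1, Aimp2 and Eef1e1) and 16 genes for mitochondrial enzymes, whose symbols end in 2. RNA was sequenced from mouse Th2 cells, a class of helper T cell that secretes the cytokines of allergic inflammation, in 4 libraries. The PBS group (saline, the vehicle) and the group given 10 µM dopamine held 2 libraries each, and the cells of both groups were Th2 cells from mouse spleen, with strain, genotype, age and treatment time not given in the sources used here. Nothing in the labels ties a library to its own animal or culture. A p-value here therefore reflects library-to-library spread alone, possibly technical and largely pooled over genes. The libraries are called A and B within each group, in the order of their column numbers.

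Aminoacyl-tRNA synthetases join each amino acid to the transfer RNAs that read its codons, and so supply the ribosome with its substrates. Most amino acids have a cytosolic enzyme and a separate nuclear-encoded mitochondrial enzyme, while Gars and Kars each encode both forms and Eprs joins glutamyl and prolyl activities in 1 protein. Several cytosolic enzymes assemble with the scaffold proteins into the multisynthetase complex, and the others are outside it. Many cytosolic synthetase genes are known targets of ATF4, the transcription factor of the amino acid response, and activated T cells are known to raise their translation machinery as they grow.

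The values are counts that the authors divided by a size factor per library, so they are comparable between libraries and are called normalized counts here. The reads behind them ranged from 5717408 in PBS A to 14167357 in dopamine A, so 1 read was worth between 0.766 and 1.70 normalized counts. limma's moderated test was run on log2(normalized count + 1), with variances drawn largely from other genes of like level (prior degrees of freedom 42.4). An SE or p-value from it is thus mostly not a measure of the gene's own spread. A gene was called higher or lower where its Benjamini-Hochberg adjusted p over all 26207 genes was under 0.05. By this rule 14.3% of all genes were called higher with dopamine and 7% lower. Well measured genes moved upward as a body on this scale, with a median log2 fold change of 0.21 over the 2258 genes whose mean was at least 1000 and of 0.19 over the 6234 genes with a mean of 100 to 1000. All 8 helper T cell markers were detected, with summed normalized counts of 23848 and 25269 in PBS and of 26926 and 27561 in dopamine. Of these 8 markers, 4 were called higher and 1, Trac, lower (log2 fold change -0.27), and edgeR called 1 higher and 1 lower. Markers of other cell types moved with the groups. Of 9 basophil and mast cell markers, 8 fell, with sums of 2231 to 2613 in PBS and 816 to 879 in dopamine. All 6 platelet and red cell markers measured fell, from sums of 1559 to 1830 to sums of 428 to 491, and 5 of 8 monocyte and granulocyte markers fell, from 447 to 490.3 down to 147 to 152. Of 6 B cell markers, 4 rose, from sums of 1476 to 1544 up to 2388 to 2399, and of 4 CD8 T and NK cell markers 1 rose, Cd8a. The sums of these 4 were 105 to 131 in PBS and 212 to 218 in dopamine, with a median log2 fold change of -0.041, and the NK markers Klrb1c and Ncr1 had values of -1.16 and -0.49 that were not called. No measured marker was at 0 in both libraries of a group. Their part in the synthetase values was not tested, and in bulk samples fewer cells of a type and less RNA per cell cannot be told apart.

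All 20 cytosolic synthetase genes were higher with dopamine, and none was lower. The log2 fold changes ran from 0.22 to 0.76 with a median of 0.50, and in all 20 genes both dopamine libraries lay above both PBS libraries. All 20 had a mean of at least 1000, and among the 2258 genes of that range 51.6% were called higher and 9.3% lower, and 68.7% had both dopamine libraries above both PBS libraries. The group's count therefore stands beside a background in which 1166 of 2258 genes of like level were called higher, and its median of 0.50 stands beside 0.21. Rescaling the libraries so that well measured genes (mean of 100 or more) had a median change near 0 left 17 of the 20 called higher, beside 27.5% of genes of like level, and gave a median of 0.30. On the recovered reads, edgeR's quasi-likelihood test called 18 of the 20 higher and DESeq2 called 19, with none lower in either. Over all genes of any level that were tested, edgeR called 2793 of 15329 higher and DESeq2 2558 of 12488.

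**Figure D1:**
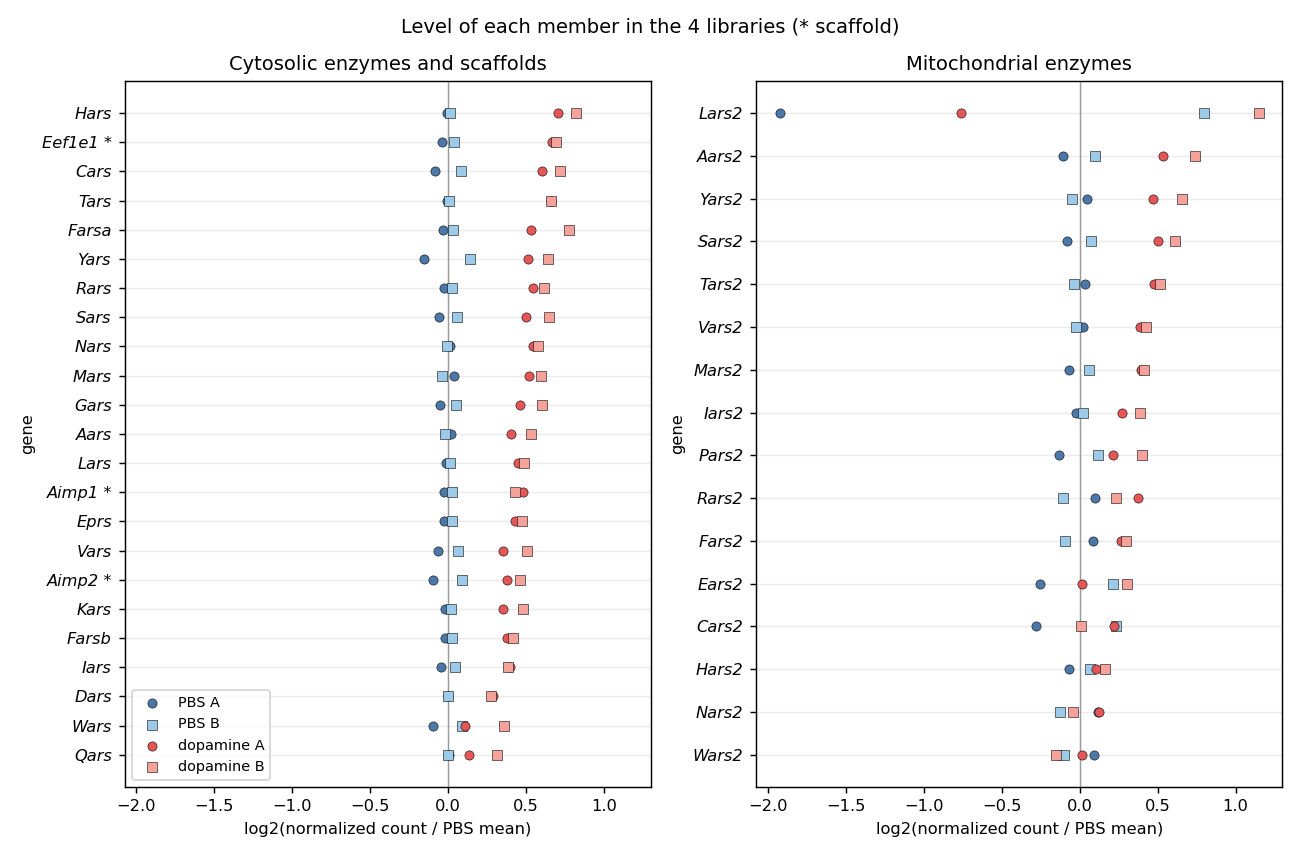
Level of each gene in the 4 libraries, as log2 of the normalized count over the mean of the PBS libraries, with cytosolic enzymes and scaffolds on the left and mitochondrial enzymes on the right. Circles are the A libraries and squares the B libraries, in blue for PBS and red for dopamine. All 20 cytosolic genes have both red points to the right of both blue ones, while 5 of the 16 mitochondrial genes overlap and Lars2 splits by library letter.

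Histidyl-tRNA synthetase had the largest change of the cytosolic group. Hars had normalized counts of 1049.8 in PBS A and 1064 in PBS B, against 1721 in dopamine A and 1864 in dopamine B. The PBS libraries were close together and every dopamine value was higher, a log2 fold change of 0.76 (SE 0.078, limma adjusted p = 1.46e-10). Cysteinyl-tRNA synthetase, Cars, stood at 1048 and 1175 in PBS and at 1690.2 and 1827 in dopamine. The log2 fold change of Cars was 0.66 (SE 0.080, limma adjusted p = 8.67e-09), with no overlap between the groups. Farsa, the catalytic subunit of the cytosolic phenylalanyl enzyme, stood at 895 and 935 in PBS and at 1319.9 and 1567 in dopamine. Its log2 fold change was 0.65, larger in value than the 0.39 of Farsb, the gene of the partner subunit, although the difference between those subunits was not tested.

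The libraries of a group agreed closely for threonyl-tRNA synthetase. Tars stood at 2421 and 2434 in PBS and at 3837 and 3828 in dopamine, and neither pair of libraries came near the other. The log2 fold change of Tars was 0.66 (SE 0.066, limma adjusted p = 6.78e-11). Yars, the tyrosyl enzyme, was at 900.3 and 1103 in PBS and at 1428 and 1561 in dopamine. Its PBS libraries lay further apart than those of Tars, yet its groups did not overlap, and the log2 fold change was 0.58. Sars, the seryl enzyme, was at 2844 and 3091 in PBS and at 4199.7 and 4656 in dopamine, a log2 fold change of 0.58. Nars, the asparaginyl enzyme, was at 3846 and 3796 in PBS and at 5578 and 5687 in dopamine, a log2 fold change of 0.56. In these genes, too, each dopamine library exceeded each PBS library, by more than the libraries of a group differed.

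Among the enzymes of the multisynthetase complex, arginyl-tRNA synthetase changed most. Rars was at 1758 and 1829 in PBS and at 2615 and 2749 in dopamine, a log2 fold change of 0.58 (SE 0.071, limma adjusted p = 1.13e-08). Mars, the methionyl enzyme that also charges the initiator transfer RNA, was at 1456 and 1375 in PBS and at 2027 and 2143 in dopamine, a log2 fold change of 0.56. Exons of Mars overlap those of Ddit3 on the opposite strand, and the strand setting of the counting is not given by the labels. Ddit3 itself, the gene of the stress factor CHOP, had a log2 fold change of -0.14 and was not called. Lars changed by 0.47 and Eprs, the fused glutamyl and prolyl enzyme, by 0.45. Over the 8 enzymes of the complex the median log2 fold change was 0.43 (range 0.22 to 0.58). Over the 12 enzymes outside it, the median was 0.57 (range 0.24 to 0.76). All members of both sets were called higher. The enzymes also fall into 2 structural classes by the fold of their catalytic domain, and the medians were 0.47 over 9 class I genes and 0.55 over 10 class II genes. Differences between these subsets were not tested.

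The smallest changes of the cytosolic group were those of Dars (aspartyl), Wars (tryptophanyl) and Qars (glutaminyl), with log2 fold changes of 0.28, 0.24 and 0.22. Qars and Wars had limma adjusted p-values of 0.0241 and 0.0450. Of the 15 alternatives run, 6 kept the call of Qars and 4 that of Wars. Both calls ended under the other scalings of the libraries, with a minimum fold change and when PBS A, PBS B or dopamine B was left out. Wars was also not called in the authors' deposited table. The call of Dars ended only where the scaling centred well measured genes or a minimum fold change was required. The other 17 cytosolic genes were called higher under each of the 15 alternatives run. The share of other genes of like level that kept a call throughout was not taken.

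The 3 scaffold genes rose as well. Eef1e1, which encodes the scaffold protein AIMP3, was at 523 and 551 normalized counts in PBS and at 853 and 869 in dopamine. Its groups were well separated, with a log2 fold change of 0.68 (SE 0.092, limma adjusted p = 1.10e-07). Aimp1 changed by 0.46 and Aimp2 by 0.42 on the log2 scale. Aimp1 had a mean of at least 1000, and the means of Eef1e1 and Aimp2 lay between 100 and 1000, where 34.6% of genes were called higher and 7.39% lower. After rescaling on well measured genes, 2 of the 3 scaffold genes were still called higher. So were 15.5% of all genes with a mean of 100 to 1000 and 27.5% of those with a mean of at least 1000.

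**Figure D2:**
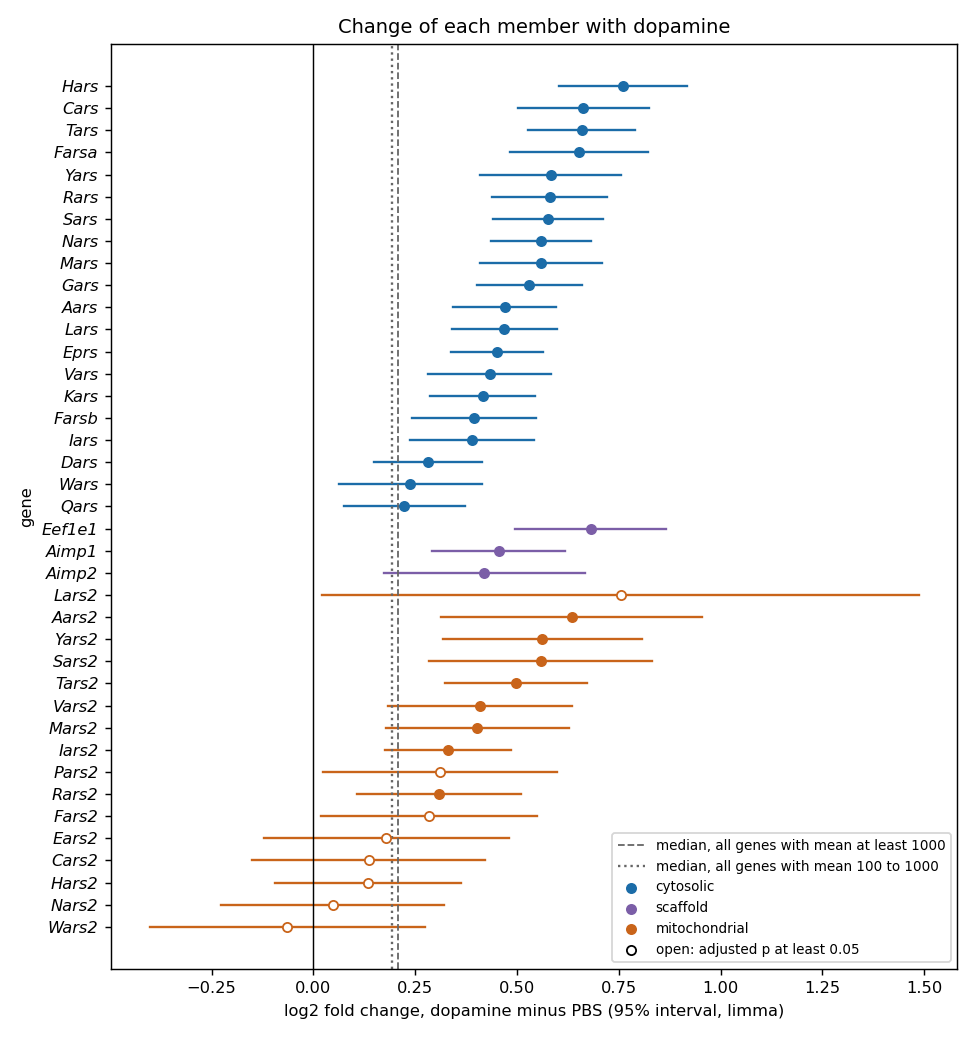
Log2 fold change of each gene with its 95% interval from limma, ordered within each group, with open circles for genes that were not called and vertical lines at the medians of all genes with a mean of 100 to 1000 (0.19) and of at least 1000 (0.21). The cytosolic genes run from 0.22 to 0.76, the scaffold genes from 0.42 to 0.68 and the mitochondrial genes from -0.064 to 0.75, and the interval of Lars2 is the widest of the 39.

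Promoter sequence was read for the members because the cytosolic genes moved together and ATF4 has a known binding motif. RefSeq windows on GRCm38.p6, from 250 bases before to 50 bases after each annotated start, matched 30 of the 39 members. The composite element of ATF4 and C/EBP factors was searched as TGATGNAA, which reads TTNCATCA on the other strand, on both strands. It was present in 5 of 13 cytosolic genes (Aars, Gars, Iars, Tars and Yars), in 0 of 3 scaffold genes and in 0 of 14 mitochondrial genes, and in 4.51% of 27025 genes with a window. The E-box CACGTG, a palindrome bound by MYC and related factors, was present in 4 of 13 cytosolic genes (Aars, Farsb, Iars and Tars), in 0 of 3 scaffold genes, in 1 of 14 mitochondrial genes (Ears2) and in 8.09% of all. These motifs do not overlap each other in the windows shown. A match describes the letters of the window and is not a measured binding site. The windows of Tars and Gars are printed in full because they had the smallest p-values among the genes with a match, and a stretch of 40 bases around the element is printed for Aars, Iars and Yars, which were added after their values were seen. All are in the direction of the gene with matches in capitals.
Tars, chr15:11399609-11399908, minus strand: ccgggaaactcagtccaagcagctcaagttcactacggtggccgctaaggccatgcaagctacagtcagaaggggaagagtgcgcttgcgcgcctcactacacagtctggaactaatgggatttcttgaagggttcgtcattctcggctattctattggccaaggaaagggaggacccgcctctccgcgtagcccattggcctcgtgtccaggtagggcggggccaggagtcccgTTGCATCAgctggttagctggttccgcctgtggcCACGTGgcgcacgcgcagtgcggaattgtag
Gars, chr6:55037751-55038050, plus strand: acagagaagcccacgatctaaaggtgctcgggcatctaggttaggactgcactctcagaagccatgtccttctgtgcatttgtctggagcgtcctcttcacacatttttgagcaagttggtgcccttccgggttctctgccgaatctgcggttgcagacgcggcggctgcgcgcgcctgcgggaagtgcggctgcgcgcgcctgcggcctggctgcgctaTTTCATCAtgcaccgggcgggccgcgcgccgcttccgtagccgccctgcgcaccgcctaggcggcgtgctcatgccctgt
Aars, chr8:111033714-111033753, plus strand: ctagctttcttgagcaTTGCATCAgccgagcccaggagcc
Iars, chr13:49682121-49682160, plus strand: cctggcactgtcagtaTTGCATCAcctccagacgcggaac
Yars, chr4:129189890-129189929, plus strand: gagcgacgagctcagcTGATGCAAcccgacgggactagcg

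In Tars and Gars the element is on the strand opposite to the gene. It begins 15 bases before the RefSeq start in Tars and 30 bases before it in Gars, and the E-box of Tars lies after the start. In Aars the element shown begins 112 bases before the start and a second match, not printed, lies just after the start, and in Iars and Yars it lies just after the start. The level of Aars, the alanyl enzyme, was 3938 and 3828 normalized counts in PBS and 5146 and 5620.1 in dopamine, with no overlap and a log2 fold change of 0.47. Gars changed by 0.53 and Iars by 0.39 on the log2 scale. The 5 genes with the element ran from Iars at 0.39 to Tars at 0.66. Over the 13 cytosolic genes with a window, the range was from Qars at 0.22 to Tars at 0.66. Cars, Hars, Lars, Nars, Rars, Vars and Wars had no matched window, and Hars had the largest change of all cytosolic genes, 0.76. Any relation of the element to the size of the change was not tested.

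The mitochondrial synthetase genes gave a mixed picture. Of the 16 genes, 8 were called higher and none lower, and 15 had a positive log2 fold change, with a median of 0.32 and a range from -0.064 to 0.75. In 11 of the 16 genes both dopamine libraries lay above both PBS libraries, and in 5 (Lars2, Cars2, Ears2, Nars2 and Wars2) the groups overlapped. Of these genes 15 had means between 100 and 1000, of which 7 were called higher and 10 had no overlap, beside 34.6% and 58% of all genes of that range. Their median of 0.31 stands beside 0.19 over those genes. After rescaling on well measured genes 4 of the 16 were called higher, beside 15.5% of genes with a mean of 100 to 1000. On the recovered reads edgeR and DESeq2 called 7 and 6 of the 16 higher, beside 2793 of 15329 and 2558 of 12488 genes tested. With single libraries left out, the median of the 16 genes ran from 0.27 (without dopamine B) to 0.40 (without PBS B). The median standard error of a mitochondrial gene was 0.13 on the log2 scale, against 0.072 for a cytosolic gene, so a change of a given size passed the test less readily in the mitochondrial group.

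Aars2, the mitochondrial alanyl enzyme, had the largest called change. It was at 93.4 and 108 normalized counts in PBS and at 146 and 168 in dopamine, so that the lower dopamine library exceeded the higher PBS library. The log2 fold change of Aars2 was 0.63 (SE 0.16, limma adjusted p = 0.00236). Yars2, the tyrosyl enzyme, was at 233 and 218 in PBS and at 312 and 354 in dopamine, a log2 fold change of 0.56. Sars2, the seryl enzyme, was at 149 and 166 in PBS and at 224 and 242 in dopamine, also a log2 fold change of 0.56. Tars2, the threonyl enzyme, was at 729 and 696 in PBS and at 994 and 1018 in dopamine. Its log2 fold change of 0.50 had the smallest adjusted p of the mitochondrial group (SE 0.087, limma adjusted p = 1.69e-05). Tars2 and Yars2 were the 2 mitochondrial genes called higher under each of the 15 alternatives, and the share of other genes that were was not taken.

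The remaining called genes changed by less. Vars2, the valyl enzyme, was at 292 and 283 in PBS and at 377 and 387 in dopamine, a log2 fold change of 0.41 (limma adjusted p = 0.00573). Mars2, the methionyl enzyme, was at 287 and 314 in PBS and at 394 and 400.0 in dopamine, a log2 fold change of 0.40 (limma adjusted p = 0.00626). Iars2, the isoleucyl enzyme and the only mitochondrial gene with a mean of at least 1000, was at 1311 and 1358 in PBS and at 1615 and 1747 in dopamine, a log2 fold change of 0.33 (limma adjusted p = 9.73e-04). In these genes the groups did not overlap. Rars2, the arginyl enzyme, was at 537 and 467 in PBS and at 651 and 590.4 in dopamine, a log2 fold change of 0.31 (limma adjusted p = 0.0210).

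The other 8 mitochondrial genes did not pass the test. Fars2, the phenylalanyl enzyme, was at 202 and 179 in PBS and at 229 and 234 in dopamine, without overlap but with a limma adjusted p of 0.122. Hars2, the histidyl enzyme, was at 304 and 334 in PBS and at 343 and 357 in dopamine, and its log2 fold change of 0.13 had a 95% interval from -0.093 to 0.36. Cars2, the cysteinyl enzyme, was at 166 and 237 in PBS and at 235 and 203 in dopamine, with the PBS libraries on either side of the dopamine ones. The intervals are wide for such genes. Nars2, the asparaginyl enzyme, was at 212 and 179 in PBS and at 214 and 190.3 in dopamine, with an interval from -0.23 to 0.32. Wars2, the tryptophanyl enzyme, had the only negative value of the 39 members, a log2 fold change of -0.064 with an interval from -0.40 to 0.27. Pars2 and Ears2 had values of 0.31 and 0.18 with limma adjusted p-values of 0.118 and 0.430. The intervals of Hars2 and Nars2 include a change as large as that of Dars in the cytosolic group, and that of Wars2 ends just below it.

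Lars2, the mitochondrial leucyl enzyme, did not follow the groups. It was at 185 normalized counts in PBS A and 1217 in PBS B, and at 414 in dopamine A and 1554 in dopamine B. Both B libraries were high and both A libraries low, 6.58-fold apart in PBS and 3.75-fold apart in dopamine, so the groups overlapped. Among 8492 genes with a mean of at least 100, Lars2 ranked first by the smaller of these within-group gaps. The largest such gap among the other 38 members was 0.51 on the log2 scale, for Cars2 in PBS. The log2 fold change of Lars2 was 0.75 with an SE of 0.36 and was not called (limma adjusted p = 0.141). That SE draws largely on other genes, and the authors' deposited value for Lars2 was 0.49 with an SE of 1.39. Leaving out single libraries moved the limma value of Lars2 between -0.60 (without PBS A) and 2.11 (without PBS B). It was called higher in 4 of the 15 alternatives: without PBS B, without dopamine A (1.71), with a pseudocount of 5, and with the column number as a block. Without Lars2 the median of the mitochondrial group was 0.31, with 8 of 15 genes called higher.

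Levels per length set the groups further apart than their changes did. Divided by the length of all annotated exons, the PBS levels of the cytosolic genes had a median of 416 normalized counts per kilobase and ran from 168.5 (Yars) and 168.9 (Cars) to 761 (Kars), 877 (Nars) and 1246 (Gars). The mitochondrial genes had a median of 49.0 per kilobase, from 18.5 (Wars2) to 150.2 (Iars2) and 181 (Rars2), and the scaffold genes lay between 137 and 170 per kilobase. Gars and Kars, which serve both compartments, thus were among the highest of the cytosolic genes. Exon length counts every annotated exon, so a gene with many rarely used exons has a lower value per kilobase than its main transcript would give. Across the genes of a group, the PBS mean, not divided by length, was also set against the log2 fold change. The Spearman correlation was -0.22 over the 20 cytosolic genes and 0.19 over the 16 mitochondrial genes (0.057 without Lars2). These values describe genes that share the same 4 libraries.

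**Figure D3:**
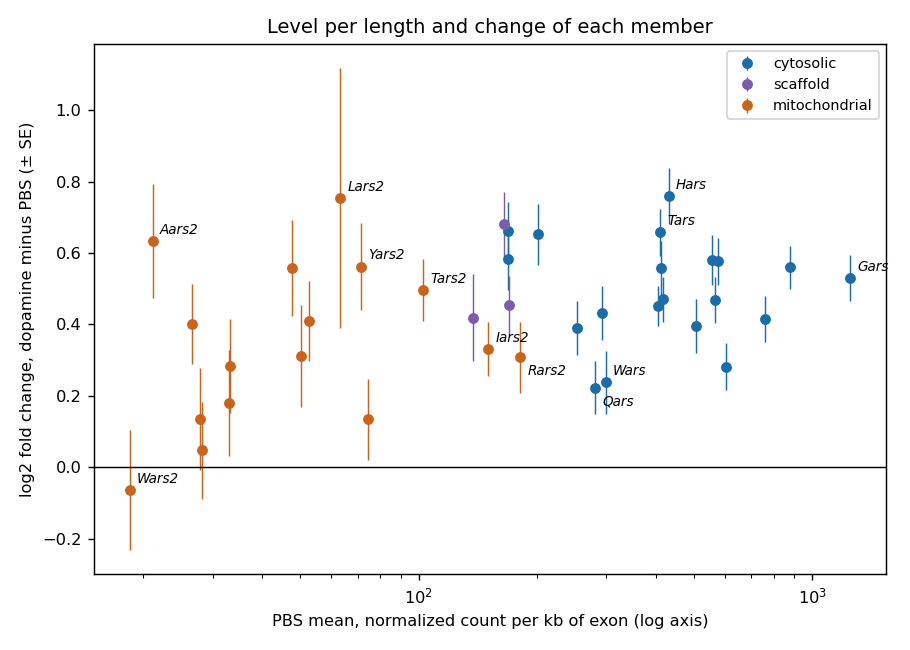
PBS level of each gene in normalized counts per kilobase of exon (log axis) against its log2 fold change, with bars of 1 SE. The cytosolic genes lie between 168.5 and 1246 per kilobase, and all but 2 of the mitochondrial genes (Iars2 and Rars2) lie below the lowest scaffold gene at 137.

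Sums over the groups changed in the same direction. The 20 cytosolic genes summed to 47071 and 48631 normalized counts in PBS and to 65177 and 69198 in dopamine. As a share of all normalized counts in the library, the cytosolic genes took 0.485% and 0.479% in PBS and 0.596% and 0.620% in dopamine. The 15 mitochondrial genes other than Lars2 summed to 4919 and 5008 in PBS and to 6197 and 6406 in dopamine, or 0.0507% and 0.0494% of all counts in PBS and 0.0567% and 0.0574% in dopamine. Both shares were higher in each dopamine library than in each PBS library.

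The comparison of cytosolic with mitochondrial genes can be made within a library, where the scaling cancels. The mean log2 level of the cytosolic genes exceeded that of the mitochondrial genes other than Lars2 by 2.998 in PBS A, 3.003 in PBS B, 3.15 in dopamine A and 3.21 in dopamine B. The dopamine libraries lay above the PBS libraries by 0.18 on average. With Lars2 included the same difference was 3.02, 2.86, 3.12 and 3.07, in the same order, and the groups remained apart by 0.15 on average. With 2 libraries against 2 the smallest two-sided exact permutation p is 0.333, and these per-library values are given as a description.

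Most amino acids have both enzymes, and the log2 ratio of the cytosolic to the mitochondrial gene was taken for 17 such pairs. The ratio was higher on average with dopamine in 15 pairs, by a median of 0.16. In 7 pairs both dopamine libraries lay above both PBS libraries, in 1 pair both lay below, and in 9 the groups overlapped. The count has no background over other genes, since pairs of other genes were not taken, and some pairs share a gene. The histidyl pair moved most: the log2 ratio of Hars to Hars2 was 1.78 and 1.67 in PBS and 2.33 and 2.38 in dopamine, a change of 0.63. These genes lie head to head on chromosome 18, Hars at 36766528 to 36783205 on the minus strand and Hars2 at 36783008 to 36792562 on the plus strand (mm10, GENCODE M21), and their exons overlap at the starts. Reads of the overlap cannot be assigned without strand.

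The cysteinyl pair came next, with log2 ratios of Cars to Cars2 of 2.65 and 2.31 in PBS and of 2.84 and 3.16 in dopamine, a change of 0.53. The ratio of Nars to Nars2 was 4.17 and 4.40 in PBS and 4.70 and 4.89 in dopamine, a change of 0.51. In these pairs the cytosolic gene rose and the mitochondrial gene did not pass the test. Farsa to Fars2 changed by 0.37, Rars to Rars2 by 0.27, and Tars to Tars2 and Mars to Mars2 by 0.16 each, all without overlap. The alanyl pair went the other way. The log2 ratio of Aars to Aars2 was 5.38 and 5.13 in PBS and 5.13 and 5.06 in dopamine, a change of -0.16 that rests on a narrow margin between PBS B and dopamine A. The lowest change was that of Lars to Lars2, -0.29, in which the libraries of a group lay far apart as described for Lars2.

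**Figure D4:**
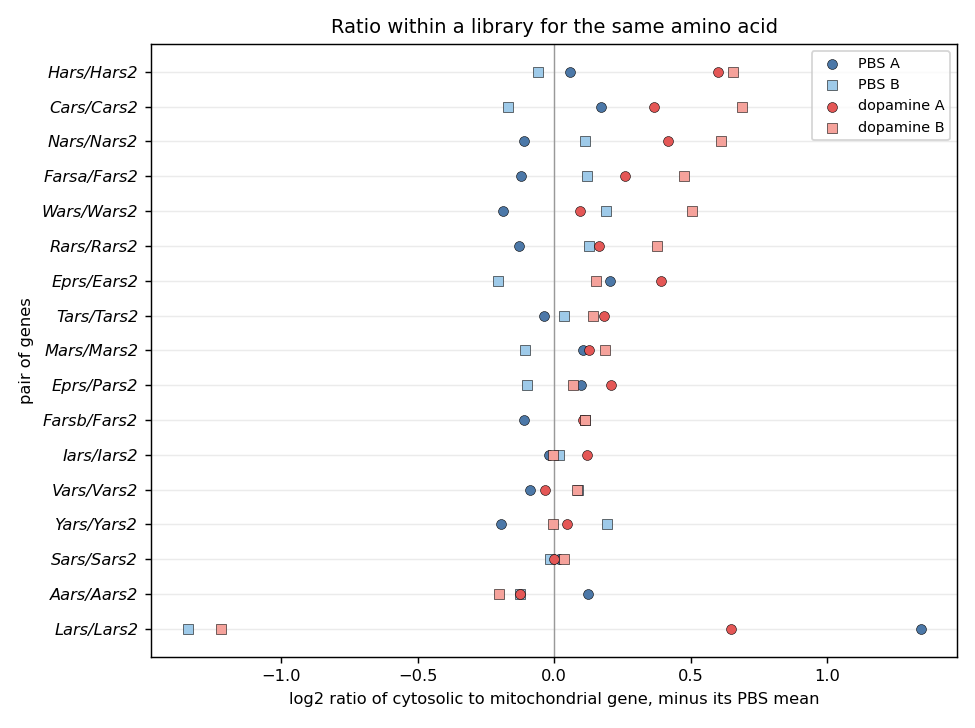
Log2 ratio of the cytosolic to the mitochondrial gene for each of the 17 pairs in the 4 libraries, drawn relative to the mean of the PBS libraries. Both dopamine libraries lie to the right of both PBS libraries in 7 pairs, led by histidine with a change of 0.63, and to the left in 1 pair, alanine.

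Other genes of the pathway were taken from lists of factors that act with the synthetases. Among 13 partners in aminoacylation, editing and transfer RNA handling, 7 were higher and none lower, with a median log2 fold change of 0.39, beside 34.6% called higher among all genes with means of 100 to 1000, where most of the list lies. Of the 13, edgeR called 4 higher, DESeq2 3 and the rescaled fit 1, with none lower. The rescaled fit called 15.5% of all genes with means of 100 to 1000 higher. No such share was taken for edgeR and DESeq2, which called 2793 of 15329 and 2558 of 12488 genes tested higher. Dtd1, which removes D-amino acids from mischarged transfer RNA, was at 258 and 274 in PBS and at 450 and 421 in dopamine, a log2 fold change of 0.71 (limma adjusted p = 2.89e-06). Trnt1, which adds the CCA end, changed by 0.38, Ptrh2, a peptidyl-tRNA hydrolase, by 0.40 and Sepsecs, of the selenocysteine pathway, by 0.43.

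The factors that carry charged transfer RNA to the ribosome, their exchange factors and the further elongation factor Eef2 rose with the enzymes. All 5 cytosolic factors were called higher, with Eef1g at a log2 fold change of 0.58 (limma adjusted p = 4.71e-12), Eef1d at 0.50, Eef2 at 0.43 and Eef1b2 at 0.34. Eef1a1, the carrier itself, had the smallest value, 0.24, near the median of 0.21 over all genes with a mean of at least 1000. All of these genes had a mean of at least 1000, the range where 51.6% of genes were called higher. Of the 5, edgeR called 4 higher, DESeq2 5 and the rescaled fit 4, with none lower. The rescaled fit called 27.5% of all genes of that range higher. Of 11 mitochondrial translation factors, most of them with means of 100 to 1000 (background 34.6%), 6 were called higher and none lower, with a median log2 fold change of 0.29 over all 11. edgeR called 5 of the 11 higher, DESeq2 4 and the rescaled fit 3, with none lower. In the rescaled fit, 15.5% of all genes with means of 100 to 1000 were called higher. The genes with the smallest p-values were Gfm1 at 0.50, Tsfm at 0.81, Tufm at 0.49 and Mtfmt, which formylates the initiator methionyl-tRNA, at 0.54.

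Of 22 genes of the amino acid response, the program under ATF4, 17 were higher and none lower, with a median log2 fold change of 0.42. Most of them had means in the ranges where 34.6% (100 to 1000) and 51.6% (at least 1000) of all genes were called higher. On the recovered reads, edgeR called 15 of the 22 higher and 2 lower, and DESeq2 called 12 higher and none lower. Over all genes tested, edgeR called 2793 of 15329 higher and DESeq2 2558 of 12488. Atf4 itself was at 2286 and 2452 normalized counts in PBS and at 3604 and 3771 in dopamine, without overlap. The log2 fold change of Atf4 was 0.64 (SE 0.067, limma adjusted p = 2.96e-10), of the order of that of Tars and Cars. Psph, the last enzyme of serine synthesis, changed by 0.66, Slc1a5, a glutamine transporter, by 0.54 and Asns, asparagine synthetase, by 0.53. The program did not move as 1 block. Atf5 had a value of -0.45 (limma adjusted p = 0.0953) and Ddit3 one of -0.14, and neither was called. In each of these genes both dopamine libraries lay below both PBS libraries. After rescaling 10 of the 22 were called higher and 2 lower. Rescaling left 15.5% of all genes with means of 100 to 1000 called higher, and 27.5% of those with means of at least 1000.

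The size of the changes moved with the scaling of the libraries, while the order of the group medians was the same in the scalings run. Under the deposited scaling, the medians of the cytosolic group, the mitochondrial group and all genes with a mean of at least 1000 were 0.50, 0.32 and 0.21. When limma was run with TMM factors they were 0.39, 0.22 and 0.10, and after rescaling on well measured genes 0.30, 0.13 and 0.012. The gap between the cytosolic and mitochondrial medians was 0.18 under each of these scalings. It narrowed to 0.11 when PBS B was left out.

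**Figure D5:**
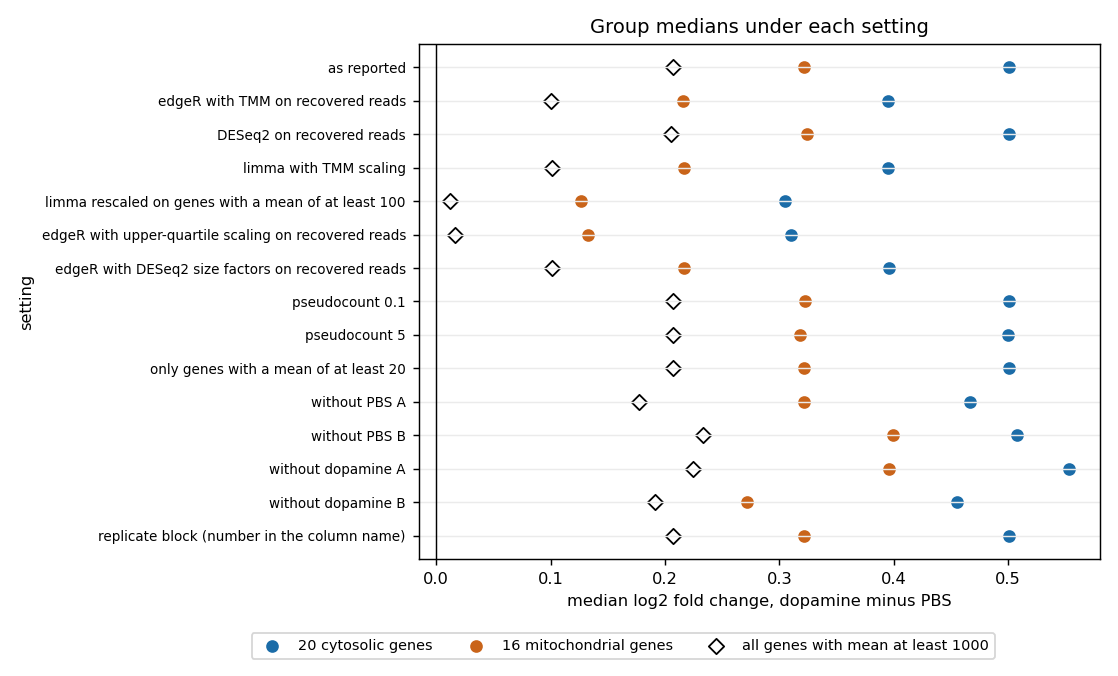
Median log2 fold change of the 20 cytosolic genes, the 16 mitochondrial genes and all genes with a mean of at least 1000 under each setting run. The cytosolic median lies above the mitochondrial median in every setting drawn, with the values as reported at 0.50, 0.32 and 0.21.

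In the authors' deposited table of the same contrast, 9.7% of all genes had an adjusted p under 0.05 with a higher level in dopamine. By the authors' deposited table, calls included 19 of the 20 cytosolic genes, 2 of the 3 scaffold genes and 6 of the 16 mitochondrial genes as higher, and no member as lower. The 9.7% covers genes of every level, and a share for genes of like level was not taken for the authors' calls. In the limma fit the share called higher was 14.3% over all genes. It was 34.6% at means of 100 to 1000 and 51.6% at means of at least 1000, where the members lie. Across the 39 members, 15 have exons that overlap another gene in GENCODE M21, and in 14 of these the overlap is on the opposite strand only. Their values could include reads of that neighbour if the counting ignored strand, which was not tested.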

How the data were processed

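RNA was measured in 4 Th2 libraries (TruSeq Stranded mRNA, per the labels' protocols). The submitters' processing notes name FastQC 0.11.2, TopHat2 2.0.13, HTSeq 0.6, DESeq2, R 3.6.2 and mm10; annotation and strand setting: not given in the sources used here. The deposited signal is the authors' normalized count, gene counts divided by a size factor. The deposited table also holds the authors' log2 fold changes with their standard errors, their Wald statistic (a score) and p-values; these are printed only where named. Column names carry 2 and 3 where the titles carry rep1 and rep2, so columns were matched to groups only.

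All values (100%, within 0.01) were whole multiples of the worth of 1 read, which gave recovered reads of 5717408, 13241168, 14167357 and 11492182 (PBS A, PBS B, dopamine A, dopamine B). The main test was limma 3.58.1 (R 4.3.3) on log2(normalized count + 1) over all 26207 genes without a filter. edgeR 4.0.16 and DESeq2 1.42.0 were run on the recovered reads, calling 2793 and 2558 genes higher and 2426 and 715 lower. The share of calls among genes of like level was not taken for edgeR and DESeq2. Scripts were tested on simulated data. Exon lengths and gene positions came from GENCODE M21, and promoters from RefSeq (GRCm38.p6). Alternatives covered scaling, pseudocount, a filter on low values, a minimum fold, each library left out and the number in the column name. The members and lists were chosen with earlier results of these data known.

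Values per library are given for the 8 cytosolic or scaffold genes and the 8 mitochondrial genes with the largest absolute log2 fold change, and for both genes of each pair whose ratio did not overlap between groups; from other lists, up to 4 genes with the smallest p are named, with values for the first. Genes named outside this rule are said to be so or are given by their fold change. Tpsb2, Hba-a1 and Hbb-bs of the marker lists were not analysed here. A gene of the partner list is not reported here by name.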

Additional observations from a re-analysis of the deposited data

How the results depend on the processing

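Of 585 values of single genes under 15 alternatives, 507 kept their direction and their side of the threshold, 52 lost the call, 5 gained it and 21 changed sign, the last all in mitochondrial genes not called in the reported fit. The count of cytosolic genes called higher ran from 18 to 20 with single libraries left out, that of mitochondrial genes from 3 to 8, and none was called lower. With the column number as a replicate block, 20 cytosolic and 10 mitochondrial genes were called higher, adding Lars2 (limma adjusted p = 1.79e-19) and Pars2 (0.0496). The numbers are not stated to pair the libraries, and deviations of same-numbered libraries correlated at 0.214 over 8492 genes.

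Rescaling on genes averaging 100 or more, and upper-quartile scaling in edgeR, each left 4 mitochondrial genes called higher. Over all genes these settings called 1806 and 2013 higher and 3178 and 3149 lower, against 3743 and 1834 as reported. DESeq2 called 715 lower and a minimum mean of 20 left 1160 lower. Leaving out single libraries gave 2152 to 3201 higher and 762 to 1389 lower. Calls were higher in 67.1% as reported, 52.0% with TMM in limma, 53.5% in edgeR, 53.7% in edgeR with DESeq2 size factors, 36.2% rescaled, 39% with upper quartiles, 78.2% in DESeq2 and 77.6% with the minimum mean.

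The cytosolic median was 0.40 in edgeR with TMM, 0.39 in limma with TMM, 0.30 rescaled, 0.31 with upper quartiles and 0.40 with DESeq2 size factors in edgeR, and 0.45 to 0.55 with single libraries left out. The mitochondrial median in the same order was 0.22, 0.22, 0.13, 0.13 and 0.22, and 0.27 to 0.40. The difference of the medians was 0.11 to 0.18, and the median change of the pair ratio 0.14 to 0.20, with single libraries left out. Signs changed for Cars2 (-0.034, -0.059, -0.12 and -0.033 in edgeR TMM, rescaled, upper-quartile and edgeR with DESeq2 size factors, -0.12 to 0.39 with single libraries left out), Ears2 (-0.015 rescaled, -0.079 upper-quartile, -0.052 to 0.41 with libraries left out) and Hars2 (-0.061 rescaled, -0.065 upper-quartile). They also changed for Nars2 (-0.017 in edgeR TMM, -0.058 in limma TMM, -0.15 rescaled, -0.10 upper-quartile, -0.017 with DESeq2 size factors, -0.074 to 0.17 with libraries left out), Lars2 (-0.60 to 2.11) and Wars2 (-0.16 to 0.031), the last 2 with libraries left out. The cause was not tested. Each PBS A read carried 1.70 normalized counts, the coarsest step of the 4 libraries.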

Other observations

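The split of Lars2 by library letter was shared by a few other genes, which were singled out after their values were seen. Next in rank among the 8492 genes with a mean of at least 100 were Gm15564, at 27.2 and 142 normalized counts in PBS and 67.9 and 186 in dopamine, and Mir6236, at 34.0 and 135 in PBS and 119 and 238 in dopamine. The B library was 5.22-fold above the A library in PBS for Gm15564 and 3.97-fold for Mir6236, and 2.75-fold and 2.00-fold above it in dopamine. The cause was not tested.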
